A study of Mus musculus with 12 samples.

Results

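The histone cluster genes are the clustered gene copies that encode the replication-dependent histones. They were taken as every gene whose name in the deposited tables begins with Hist1, Hist2, Hist3 or Hist4. This gave 68 of 21950 genes in the table of whole lungs: 6 of class H1, 19 of H2A, 18 of H2B, 12 of H3 and 13 of H4. The table of extracellular vesicles listed 36 of them among 8096 genes: 3 of H1, 7 of H2A, 15 of H2B, 5 of H3 and 6 of H4. That table holds no gene whose means in both groups lay under 2.003 RPKM, a unit of reads that corrects for exon length and for the reads in genes of a library. Members missing from it are called not listed, without a level.

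The sequenced RNA came either from whole lungs of adult mice of strain C57BL/6 or from extracellular vesicles, membrane particles that cells shed and that were here taken from the medium of lung mesenchymal cells after 48 hours of culture. Each source had 2 mutant-labelled and 4 wild-type libraries. The sample titles and genotype labels give the mutant as ColcreER; Tbx4flox/flox, a Cre recombinase activated by tamoxifen under a Col driver, with floxed alleles of the T-box factor gene Tbx4. The series' design text names Tbx4creER; Ghrflox/flox mice instead, with floxed growth hormone receptor, so the libraries are called mutant-labelled here. The labels state neither which cells the driver acts in nor the tamoxifen treatment. In whole lung neither gene was lower in both mutant-labelled libraries: Tbx4 had 20.9 and 36.7 RPKM in the mutant-labelled lungs, against 26.1 to 30.1 RPKM in wild-type lungs, and Ghr at 9.83 and 12.9 RPKM against 11.8 to 13.3 RPKM. In vesicles Tbx4 was not listed, and Ghr stood at 13.1 and 11.2 RPKM in mutant-labelled vesicles against 19.8 to 25.1 RPKM in wild-type vesicles.

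Lung libraries held 42.7 to 44.8 M reads (megareads) in genes. Vesicle libraries were shallower, with 1.75 and 1.68 M reads in the mutant-labelled ones and 4.2 to 5.41 M in the wild-type ones. Mutant-labelled vesicle library 1 stood apart: its Spearman correlation over all genes was 0.399 with mutant-labelled library 2 and 0.358 to 0.426 with wild-type libraries, where wild-type pairs reached 0.605 to 0.687, and 22.2% of its genes were at 0 against 7.07% to 9.77% in the other vesicle libraries. Of 11 mesenchyme markers the vesicle table listed 10, summing to 882 and 2754 RPKM in mutant-labelled libraries and 1878 to 2226 RPKM in wild-type libraries, and it listed 0 of 5 endothelial, 0 of 6 B cell and 0 of 5 alveolar type 2 markers. In whole lung all 5 alveolar type 2 markers were read, summing to 11169 to 17355 RPKM. The Y-linked gene Ddx3y was read in wild-type lungs 1 and 2 (20.6 and 19.9 RPKM) and in wild-type vesicle libraries 1 and 2 (24.4 and 10.9 RPKM). In the other libraries it was at or near 0, so sex was not balanced between the groups. The labels do not say that libraries came from separate animals, so p-values measure the spread between these libraries, which may be technical.

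Histones H2A, H2B, H3 and H4 form the protein core around which DNA is wrapped, and H1 binds the linker DNA between cores. Most cluster genes are transcribed in S phase, when new chromatin is assembled, and their messenger RNAs end in a short stem-loop in place of a poly(A) tail. The stem-loop binding protein holds this hairpin during processing and translation. Some cluster genes can also give poly(A)-tailed transcripts that run past the hairpin in cells that no longer divide. Whether the libraries were selected for poly(A) tails is not given in the sources used here, and such a selection would change how many cluster transcripts are read.

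The stem-loop is shown because it is the element that all 5 classes share, and its stem differs between H4 and the other classes. On the mm9 genome a hairpin of 6 base pairs around a loop of 4 bases was found at the coding end of 61 of the 68 members. All 49 found in H1, H2A, H2B and H3 carried the same stem, whereas 10 of the 12 found in H4 carried a second stem and 2 carried others. In the lines that follow, capitals mark the 6 paired bases on each side, the hairpin is flanked by 5 bases each way, and all are written 5′ to 3′ on the sense strand as DNA.
Hist1h2bc: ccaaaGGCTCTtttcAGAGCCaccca
Hist1h2ba: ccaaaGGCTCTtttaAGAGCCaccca
Hist1h2bh: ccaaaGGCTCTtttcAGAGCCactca
Hist1h1c: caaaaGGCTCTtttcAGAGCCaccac
Hist2h2aa1: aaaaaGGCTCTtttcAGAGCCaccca
Hist2h3c1: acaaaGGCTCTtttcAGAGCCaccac
Hist1h4n: ctaaaGGCCCTtttcAGGGCCatcca
Hist1h4b: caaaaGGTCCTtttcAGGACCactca
The hairpins lie at chr13:23776516-23776531 (+) for Hist1h2bc, chr13:24025599-24025614 (-) for Hist1h2ba, chr13:23634797-23634812 (-) for Hist1h2bh and chr13:23831381-23831396 (+) for Hist1h1c. Those of Hist2h2aa1 and Hist2h3c1 lie at chr3:96043707-96043722 (-) and chr3:96051250-96051265 (+), and those of the H4 genes Hist1h4n and Hist1h4b at chr13:21923667-21923682 (-) and chr13:23849235-23849250 (+). The loop read TTTC in 49 members, TTTA in 9 and TTTT in 3. Among the 16 H2B genes with a hairpin the stem was invariant and 4 had the TTTA loop.

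Promoters also divided the classes, and 3 of H2B and H4 genes are shown. The H2B sum varied less between wild-type vesicle libraries (258 to 293 RPKM) than the H4 sum (17.9 to 49.5 RPKM). RefSeq (GRCm38.p6) gave 62 promoters of 61 members, from 250 bases before to 50 after the start. Hist1h2al, Hist1h2ap, Hist1h2bc, Hist1h3a, Hist1h3f, Hist2h2be and Hist2h4 were not matched. The histone octamer motif ATTTGCAT, a site of Oct factors, was found on either strand in 7 of 17 H2A and 7 of 17 H2B promoters and in 0 of 6 H1, 0 of 10 H3 and 0 of 12 H4 promoters, against 1.74% of all 32851 promoters in the table. The motif CCAAT was present in every H1, H2A, H2B and H3 promoter matched and in 3 of 12 H4 promoters, against 37.4% of all promoters. TATAAA was found in 56.5% of the histone promoters and 13.6% of all. Divergent H2A and H2B neighbours share the DNA between them, so these promoters are not independent. In the next lines the 250 bases before the start are given 5′ to 3′, and capitals mark these 3 motifs on either strand (ATTGG is CCAAT on the other strand).
Hist1h2bg: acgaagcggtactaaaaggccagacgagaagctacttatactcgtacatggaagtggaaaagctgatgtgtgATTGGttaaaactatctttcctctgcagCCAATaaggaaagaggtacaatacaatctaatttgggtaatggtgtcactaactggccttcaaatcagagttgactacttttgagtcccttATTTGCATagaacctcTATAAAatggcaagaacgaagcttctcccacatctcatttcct
Hist1h2bh: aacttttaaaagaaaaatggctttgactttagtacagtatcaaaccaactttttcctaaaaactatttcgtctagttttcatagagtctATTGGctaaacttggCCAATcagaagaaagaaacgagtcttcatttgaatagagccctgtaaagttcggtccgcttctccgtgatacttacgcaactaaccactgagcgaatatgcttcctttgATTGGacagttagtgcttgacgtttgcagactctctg
Hist1h4n: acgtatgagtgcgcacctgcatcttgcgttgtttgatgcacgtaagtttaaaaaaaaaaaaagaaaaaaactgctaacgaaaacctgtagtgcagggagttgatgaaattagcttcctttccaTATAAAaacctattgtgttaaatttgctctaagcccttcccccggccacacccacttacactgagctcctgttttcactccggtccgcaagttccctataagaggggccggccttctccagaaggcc
These lie on GRCm38.p6 at chr13:23571150-23571399 (+) for Hist1h2bg, chr13:23543445-23543694 (-) for Hist1h2bh and chr13:21832198-21832447 (-) for Hist1h4n. Hist1h2bg and Hist1h2bh averaged 22.8 and 24.5 RPKM in wild-type vesicles. The window of Hist1h2bg holds the octamer and TATAAA letters and that of Hist1h2bh does not, and no relation of motifs to levels was tested.

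Because the copies resemble each other, a read can belong to several members. Of the 50-base windows of a member, a median of 46.4% occurred in at least 1 other member, and 7 members had no shared window. Hist1h2bq and Hist1h2br, Hist1h2ao and Hist1h2ap, and Hist2h2aa1 and Hist2h2aa2 were identical in every window. The median identity of coding sequences was 97.6% between H2B genes, 96.7% between H2A genes, 97.5% between H3 genes and 93.9% between H4 genes. How reads with several matches were counted is not given in the sources used here, so the level of a single copy is uncertain and the class sums are given beside it. The sums depend on that treatment too, since a read counted at several copies would enter a sum more than once and a dropped read not at all.

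Among the cluster members listed in vesicles, H2B genes made up most of the summed RPKM and were the most even class between wild-type libraries. Of 11 histone genes encoded outside the clusters, 9 were listed and summed to 192 to 300 RPKM in wild-type vesicles. The 15 listed H2B genes together stood at 8.42 and 268 RPKM in mutant-labelled vesicle libraries 1 and 2, against 293, 258, 259 and 266 RPKM in wild-type libraries 1 to 4 (269 ± 16.5, SD, n = 4). All 36 listed members summed to 372 ± 43.8 RPKM in wild-type vesicles. Mutant-labelled library 2 lay within the wild-type range and library 1 far below it, so that the mutant-labelled mean of 138 ± 184 RPKM (SD, n = 2) describes neither library. The sums rest on 19 and 296 reads in mutant-labelled libraries against 765 to 1549 reads in wild-type libraries. Set against the wild-type mean, the H2B sum was 0.0313 of it in mutant-labelled library 1 and 0.997 of it in mutant-labelled library 2.

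Single H2B genes showed the same pattern, but copies that share sequence are not independent, so the counts that follow are a description. All 15 members were lowest of the 6 vesicle libraries in mutant-labelled library 1, and 9 of them were at 0 there. Over all 7615 genes tested in vesicles, mutant-labelled library 1 lay below every wild-type library in 37.6%, and among genes with a wild-type median of at least 5 RPKM it did so in 48.9% and was at 0 in 11.8%. In mutant-labelled library 2, none of the 15 was at 0, 5 lay below every wild-type library, as did 16.9% of all genes, and 4 above, as did 25.4%. The depth of mutant-labelled library 1 was close to that of library 2.

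Hist1h2bc (ENSMUSG00000018102, mm9 chr13:23776068-23784357, 2 exons), a core histone H2B gene of the large cluster on chromosome 13, was the highest member in vesicles. It stood at 2.34 and 77.0 RPKM in mutant-labelled vesicles against 96.5, 91.8, 58.2 and 60.3 RPKM in wild-type vesicles, on 3 and 95 reads against 180 to 318. The groups overlapped, and the log2 difference of mutant-labelled minus wild type was -2.23 (SE 0.96, 95% confidence interval -4.31 to -0.15, limma adjusted p = 0.485). Without mutant-labelled library 1 the difference was 0.04.

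The next H2B members, which share sequence with Hist1h2bc, showed the same split. Hist1h2bh stood at 1.48 and 33.8 RPKM in mutant-labelled vesicles against 25.3, 22.7, 30.1 and 20.02 RPKM in wild-type vesicles. Hist1h2bg stood at 0 and 25.0 RPKM in mutant-labelled vesicles against 31.8, 19.3, 26.0 and 14.0 RPKM in wild-type vesicles. In both genes the second mutant-labelled library lay inside or above the wild-type range. Hist1h2bj stood at 0 and 14.2 RPKM against 15.9, 12.04, 18.0 and 15.2 RPKM, and Hist1h2ba, an H2B variant gene expressed in testis, at 1.49 and 18.6 RPKM against 17.4, 16.2, 14.3 and 10.1 RPKM. In 5 other H2B genes both mutant-labelled libraries lay below all wild-type ones. The clearest by its p, Hist1h2bl, stood at 0 and 9.39 RPKM in mutant-labelled vesicles against 15.2, 11.8, 16.9 and 11.2 RPKM in wild-type vesicles, a log2 difference of -2.18 (SE 0.98, limma adjusted p = 0.485). The others were Hist1h2bb, Hist1h2bn, Hist1h2bq and Hist1h2br, which stood at 0 to 1.27 RPKM in mutant-labelled library 1 and 3.96 to 7.83 RPKM in library 2.

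**Figure D1:**
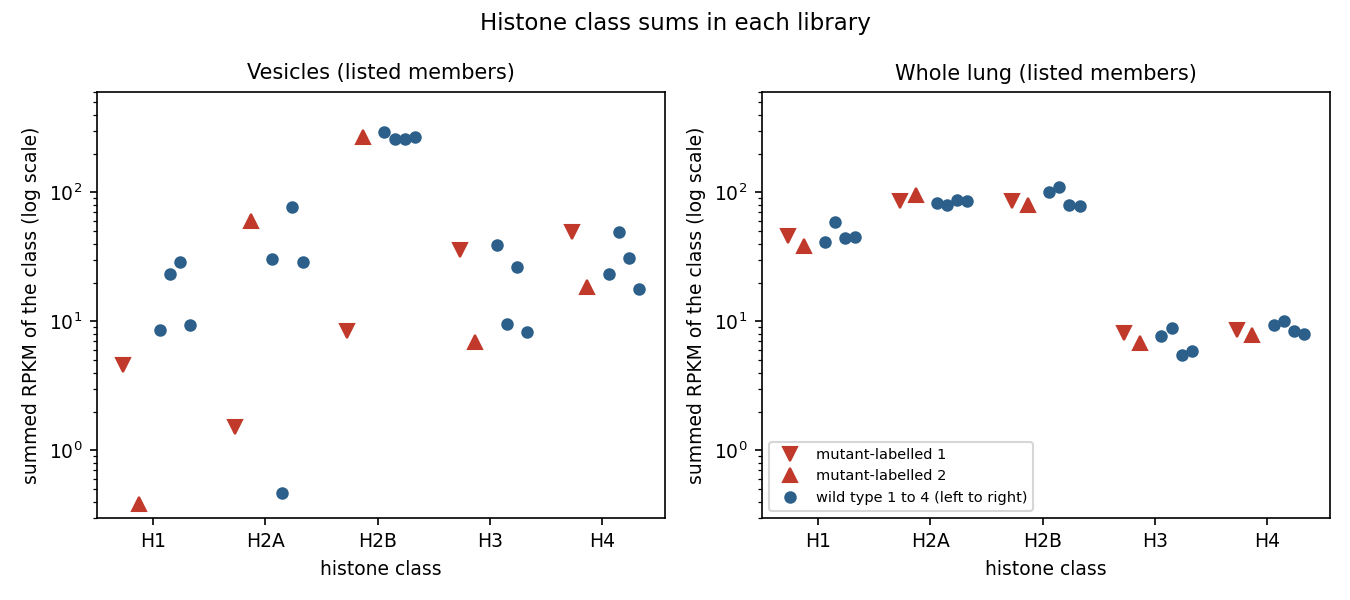
Summed RPKM of the listed members of each histone class (log axis) in vesicles (left) and whole lung (right), with mutant-labelled libraries as red triangles and wild-type libraries 1 to 4 as blue points. The vesicle H2B sum was 8.42 RPKM in mutant-labelled library 1 and 258 to 293 RPKM in the other 5 libraries with wild-type 1 the highest, while the lung sums of the groups overlap in every class.

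H2A, the partner of H2B in the nucleosome, behaved otherwise. The 7 listed H2A genes summed to 1.52 and 59.7 RPKM in mutant-labelled vesicles against 30.3, 0.466, 77.0 and 28.7 RPKM in wild-type vesicles. They rested on an estimated 1 and 79 reads against 75, 2, 187 and 79. Of the 79 reads in mutant-labelled library 2, 25 were those of Hist1h2ac, whose reads may be overstated. Mutant-labelled library 1 and wild-type library 2 were thus both low, with 6 and 5 of the 7 members at 0. The coefficient of variation over the wild-type libraries was 93.0% for the H2A sum and 6.12% for the H2B sum. Wild-type library 2, which held almost no H2A reads, had an H2B sum of 258 RPKM. The identical pair Hist2h2aa1 and Hist2h2aa2, whose values are not independent, showed it too. Hist2h2aa1 stood at 0 and 12.2 RPKM in mutant-labelled vesicles against 10.3, 0.366, 22.3 and 6.00 RPKM in wild-type vesicles. Hist1h2al, the highest H2A gene of the vesicles, stood at 1.52 and 20.5 RPKM in mutant-labelled vesicles against 10.6, 0, 19.5 and 9.79 RPKM in wild-type vesicles, and the groups overlapped (log2 difference 0.05, SE 1.27, limma adjusted p = 0.991).

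The sum of the linker histone H1 genes was low in both mutant-labelled vesicle libraries, while only 1 of its 3 genes was apart between the groups. The 3 listed genes summed to 4.60 and 0.382 RPKM in mutant-labelled vesicles against 8.63, 23.5, 28.6 and 9.37 RPKM in wild-type vesicles, without overlap. The sums rested on an estimated 6 and 1 reads against 61 to 265, of which those of Hist1h1d may be overstated. Hist1h1c (ENSMUSG00000036181, chr13:23830676-23832235, 1 exon), the H1 gene with the highest level here, stood at 0 and 0.382 RPKM in mutant-labelled vesicles against 7.73, 12.5, 12.1 and 6.40 RPKM in wild-type vesicles. It rested on 0 and 1 read against 54 to 91. Its log2 difference of -3.14 (SE 0.91, interval -5.10 to -1.17) had the smallest p of the members (0.00437 unadjusted) and did not pass over all genes (limma adjusted p = 0.441). Hist1h1e did not share the order, with 4.60 and 0 RPKM in mutant-labelled vesicles against 0.597, 1.15, 13.1 and 2.97 RPKM in wild-type vesicles.

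The 5 listed H3 genes summed to 35.9 and 6.88 RPKM in mutant-labelled vesicles against 38.8, 9.62, 26.6 and 8.25 RPKM in wild-type vesicles, and the 6 listed H4 genes to 49.3 and 18.5 RPKM against 23.5, 49.5, 31.1 and 17.9 RPKM. None of these 11 genes was at 0 in mutant-labelled library 1, and 6 were at 0 in library 2. For H3 this is partly set by which genes are listed: Hist1h3d and Hist1h3g had wild-type means under 2.003 RPKM, so they are listed only through the mutant-labelled mean, and they gave 25.8 RPKM of the H3 sum in library 1. The other 3 H3 genes summed to 10.03 and 5.81 RPKM in the mutant-labelled libraries. All 6 H4 genes and all 15 H2B genes had wild-type means above that level. Over all listed genes, mutant-labelled library 1 thus stood inside the wild-type range in H3 and H4. Mutant-labelled library 2 stood below it in H3 and inside it in H4. Without Hist1h3d and Hist1h3g, mutant-labelled library 2 was not below the wild-type range in H3. Its 5.81 RPKM exceeded the sum in wild-type library 2, where Hist2h3b, Hist2h3c1 and Hist2h3c2 stood at 1.32, 3.30 and 1.05 RPKM.

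Single H3 and H4 genes carried much of each sum. Hist1h3d stood at 20.5 and 1.07 RPKM in mutant-labelled vesicles against 3.99, 3.45, 0.425 and 0 RPKM in wild-type vesicles. Hist2h3c1 stood at 6.61 and 4.59 RPKM in mutant-labelled vesicles against 6.26, 3.30, 25.3 and 2.64 RPKM in wild-type vesicles. Its annotated exon overlaps the H2A gene Hist2h2aa2 on the same strand, so its level and the H3 sum may hold reads of that gene. Hist1h4n stood at 19.99 and 11.1 RPKM in mutant-labelled vesicles, on 15 and 8 reads, against 4.67, 25.9, 3.88 and 4.73 RPKM in wild-type vesicles (log2 difference 0.98, SE 0.91, limma adjusted p = 0.663). In each of the 3 genes Hist1h3d, Hist2h3c1 and Hist1h4n a different library stood highest. Few reads lie behind these classes: the H4 sums rest on 36 and 13 reads in mutant-labelled vesicles and on 39 to 99 in wild-type vesicles.

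**Figure D2:**
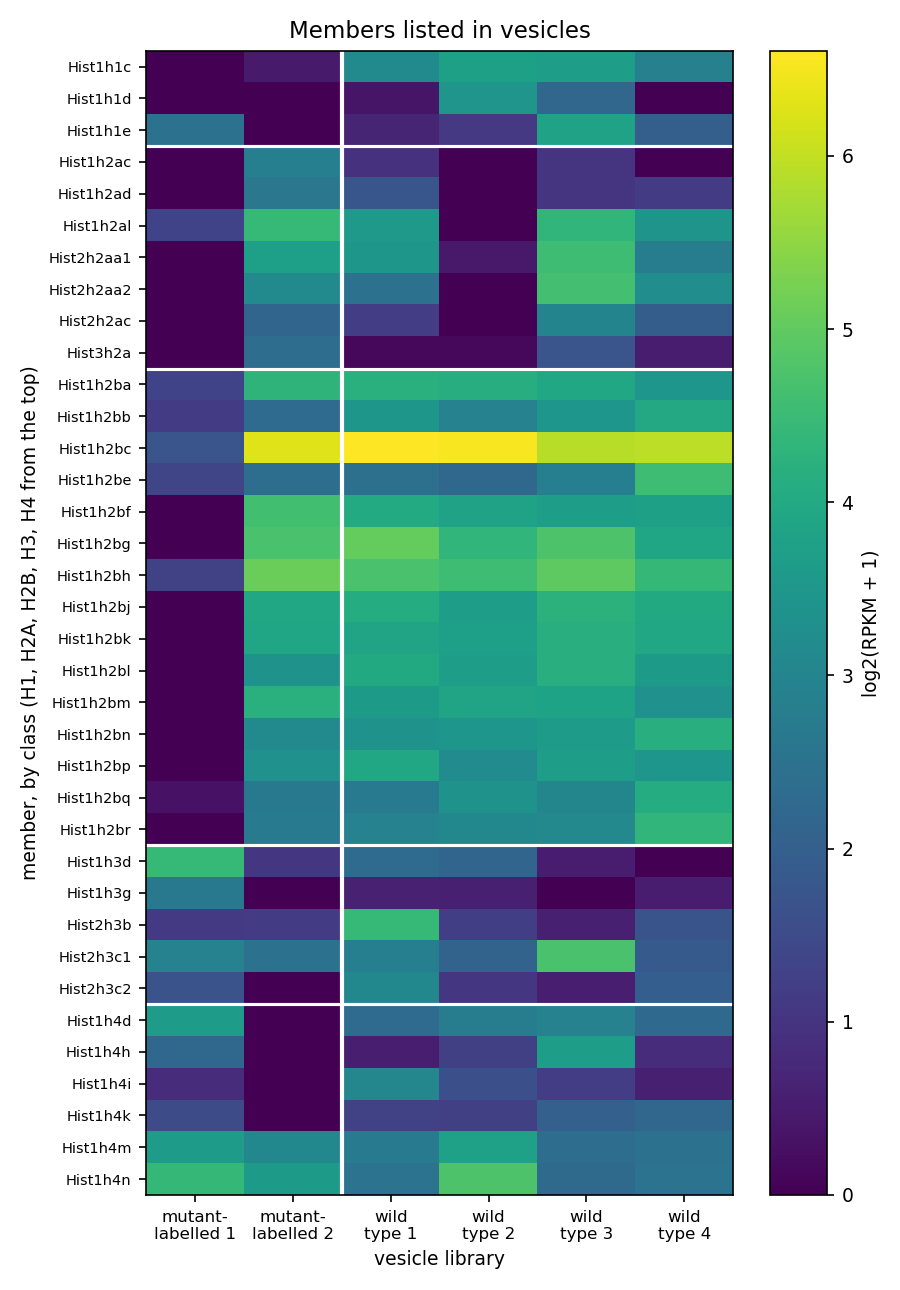
Log2(RPKM + 1) of the 36 members listed in vesicles (rows, by class from H1 at the top to H4) in the 2 mutant-labelled and 4 wild-type vesicle libraries (columns). The H2B block is dark in mutant-labelled library 1 and lighter in the other libraries, with single high values such as Hist1h2be (22.7 RPKM) in wild-type library 4, the H2A block is dark in mutant-labelled library 1 and wild-type library 2, and H3 and H4 vary from library to library.

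Across the whole vesicle table limma called 0 of the 35 tested members at an adjusted p under 0.05, and 0% of 7615 genes were called in all. At an unadjusted p under 0.05, 3 members were lower (Hist1h1c, Hist1h2bc and Hist1h2bl), against 5.03% of all genes, and 0 higher, against 5.23%. Groups did not overlap in 6 members that were lower, 1 of H1 and 5 of H2B, against 9.94% of genes, and in 0 that were higher, against 9.88%. The log2 difference was above 0 in 7 of the 35 members, against 46% of all genes. The median over the tested members was -1.12, beside -0.14 over all genes tested. By class the medians were -1.50 for H1, 0.05 for H2A, -1.91 for H2B, -0.49 for H3 and -0.61 for H4, and the median SE of a gene was 0.99.

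Each mutant-labelled vesicle library alone gave another picture. Without mutant-labelled library 1 the median over H2B was -0.09, with 6 of 15 members above 0, and that over H2A was 1.59. Of the 7 H2A genes 3 (Hist1h2ac, Hist1h2ad and Hist3h2a) had wild-type means under 2.003 RPKM and are listed only through mutant-labelled library 2, so the H2A median is drawn in part from genes selected for being high there. Without mutant-labelled library 2 the median over H2B was -3.65 and that over H2A -1.53, and 8 members, all of H2B, were called, beside 5.15% of 7318 genes. That fit takes library 1 as the only mutant-labelled library and assumes that it varies like the wild-type ones. In Hist1h1c the higher mutant-labelled value (0.382 RPKM) stood far below the lowest wild-type value (6.40 RPKM). In bulk RNA, fewer cells of a type and less RNA per cell cannot be told apart, and the same holds for vesicles shed by them. Macrophage marker sums differed between the same libraries, at 495 and 263 RPKM in mutant-labelled vesicles against 0.315, 181, 263 and 10.4 RPKM in wild-type vesicles (5 of 10 markers listed), and the mesenchyme sum was lowest in mutant-labelled library 1. Their part in the histone values was not tested.

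**Figure D3:**
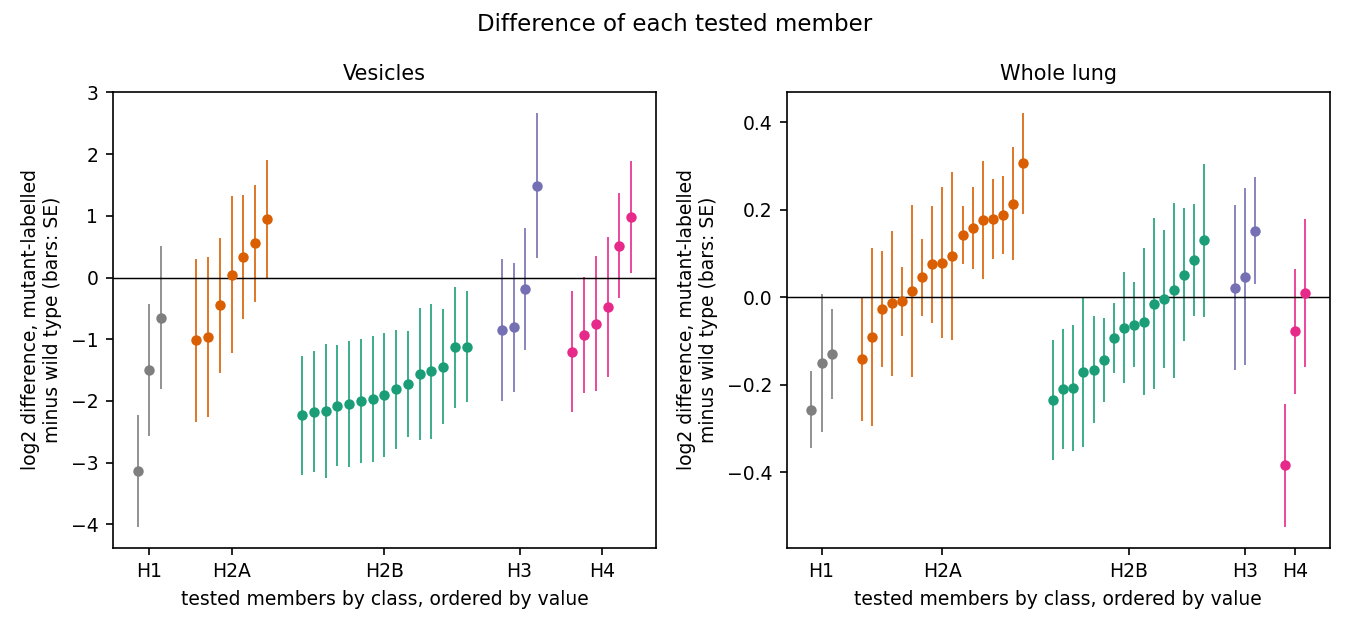
Log2 difference of mutant-labelled minus wild type with its SE for each tested member, by class and ordered by value, in vesicles (left) and whole lung (right, on a narrower scale). All 15 H2B genes lie below 0 in vesicles, with a class median of -1.91, and the lung values lie between -0.38 and 0.31.

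In whole lung the histone cluster genes differed little between the groups. All 68 members together summed to 234 and 229 RPKM in the mutant-labelled lungs, against 241, 268, 226 and 224 RPKM in wild-type lungs. The H2B sums were 85.9 and 80.4 RPKM in the mutant-labelled lungs, against 99.98, 111, 80.2 and 78.8 RPKM in wild-type lungs. The H2A sums were 85.6 and 95.9 RPKM in the mutant-labelled lungs, against 83.4, 79.6, 87.5 and 85.9 RPKM in wild-type lungs. In neither class were the groups apart, and the highest H2B and H1 sums were those of wild-type lung 2. H1 summed to 45.6 and 38.4 RPKM in the mutant-labelled lungs, against 41.0 to 58.7 RPKM, H3 to 8.13 and 6.79 RPKM against 5.48 to 8.95 RPKM, and H4 to 8.61 and 7.77 RPKM against 8.05 to 10.1 RPKM.

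A few genes made up most of the lung values. Hist1h2bc had 52.6 and 46.1 RPKM in the mutant-labelled lungs, against 59.3, 70.0, 46.4 and 49.3 RPKM in wild-type lungs, 57.3% to 63.0% of the H2B sum. Hist1h1c had 42.4 and 35.6 RPKM in the mutant-labelled lungs, against 37.7, 54.7, 40.7 and 41.6 RPKM in wild-type lungs, 91.9% to 93.1% of the H1 sum. Both genes overlapped between the groups. Among H2A genes Hist2h2aa2 stood at 15.0 RPKM in both mutant-labelled lungs against 13.0, 13.8, 12.8 and 14.4 RPKM in wild-type lungs. Its twin Hist2h2aa1, identical in every window, stood at 11.9 and 13.3 RPKM against 13.2, 12.01, 12.04 and 13.5 RPKM and overlapped between the groups (log2 difference -0.01, SE 0.079, limma adjusted p = 0.998). Hist1h2al stood at 12.8 and 13.7 RPKM against 12.8, 11.9, 10.4 and 11.2 RPKM. Of H3 genes 10 of 12, and of H4 genes 10 of 13, averaged under 1 RPKM in wild-type lungs, and Hist1h1a was at 0 in every lung.

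In lung 42 members passed the filter of at least 1 RPKM in at least 2 libraries: 3 of H1, 17 of H2A, 16 of H2B, 3 of H3 and 3 of H4. Limma called 0 of them, as it called 0% of 13701 genes. At an unadjusted p under 0.05, 1 member was higher, against 2.54% of genes, and 2 were lower, against 1.21%. Hist1h2an, an H2A gene, had 2.97 and 3.60 RPKM in the mutant-labelled lungs, against 2.32, 2.22, 3.01 and 2.31 RPKM in wild-type lungs (log2 difference 0.31, SE 0.12, limma adjusted p = 0.994). Hist1h1e, a linker histone gene, had 1.41 and 1.61 RPKM in the mutant-labelled lungs, against 1.75, 2.21, 1.999 and 2.02 RPKM in wild-type lungs (-0.26, SE 0.087, limma adjusted p = 0.994). Hist1h4h, an H4 gene, had 1.26 and 1.03 RPKM in the mutant-labelled lungs, against 2.28, 1.85, 1.79 and 1.33 RPKM in wild-type lungs (-0.38, SE 0.14, limma adjusted p = 0.994), on 26 and 21 reads against 27 to 46. Of these, Hist1h1e and Hist1h4h did not overlap between the groups and Hist1h2an did.

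Groups in lung did not overlap in 3 tested members that were higher, all H2A (Hist1h2ad, Hist1h2al and Hist2h2aa2), against 7.5% of genes, and in 3 that were lower (Hist1h1e, Hist1h2br and Hist1h4h), against 4.12%. The median log2 difference was -0.01 over the tested members, beside 0.01 over all genes. It was 0.08 over H2A with 12 of 17 members above 0, -0.07 over H2B with 4 of 16 above 0, -0.15 over H1, 0.05 over H3 and -0.08 over H4, where 55.7% of all genes lay above 0. With Y-linked reads as a covariate, chosen after seeing the data and marking wild-type lungs 1 and 2, 10 of 16 H2B members lay above 0 with a median of 0.04, while the H2A median was 0.07 with 10 of 17 above 0. Whether sex or another feature of these lungs goes with the H2B values cannot be told apart. Without mutant-labelled lung 2 the H2A median was -0.0027, and without mutant-labelled lung 1 it was 0.18. Neutrophil markers differed in lung too, summing to 478 and 958 RPKM in the mutant-labelled lungs, against 123 to 242 RPKM in wild-type lungs, with 11 of 11 tested markers above 0. Their part in the histone values was not tested.

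Wild-type vesicles and wild-type lung were normalized in separate tables, so members were set side by side by their percentile among the 8096 genes of both tables within each library, without a test. H2B genes stood at a median percentile of 71.7 in wild-type vesicles and 9.18 in wild-type lung. In 14 of 15 the 4 vesicle values lay above the 4 lung values, where 28.3% of all genes did so. The exception, Hist1h2bc, stood at 93.0 in vesicles and 90.7 in lung. H4 genes stood at a median percentile of 42.6 in vesicles and 2.40 in lung (6 of 6 higher), H3 genes at 35.6 and 3.89 (5 of 5), and H2A genes at 31.8 and 30.4 (0 of 7). Genes at 0 in a library shared the mean rank of all such genes. Hist1h3g in wild-type vesicle library 3 and Hist1h3d in library 4 were at 0 and thus ranked at 3.54 and 4.01. Their highest wild-type lung percentiles were 1.37 and 1.68, so counting them as higher in vesicles rests on ties. The share of all genes was counted in the same way. The 3 H1 genes were split, with class medians of 39.6 in vesicles and 8.58 in lung. Hist1h1e was higher in vesicles (39.6 against 8.58), Hist1h1d overlapped (31.8 against 6.66), and Hist1h1c was lower (64.5 against 87.3), as were 23.6% of all genes. A member low in vesicles is not listed there, so members had to be at some level in vesicles to enter this comparison.

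The spread among H2B copies also differed between the sources. Hist1h2bc gave 22.5% to 35.6% of the H2B sum in wild-type vesicles against 60.0% to 65.2% in wild-type lung, over the 15 copies of both tables. Without it, the other 14 copies summed to 192 ± 18.0 RPKM in wild-type vesicles and 33.2 ± 5.64 RPKM in wild-type lung (SD, n = 4 each). They averaged 9.25 to 24.5 RPKM each in wild-type vesicles and 1.004 to 4.50 RPKM in wild-type lung. The levels come from separately normalized tables.

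**Figure D4:**
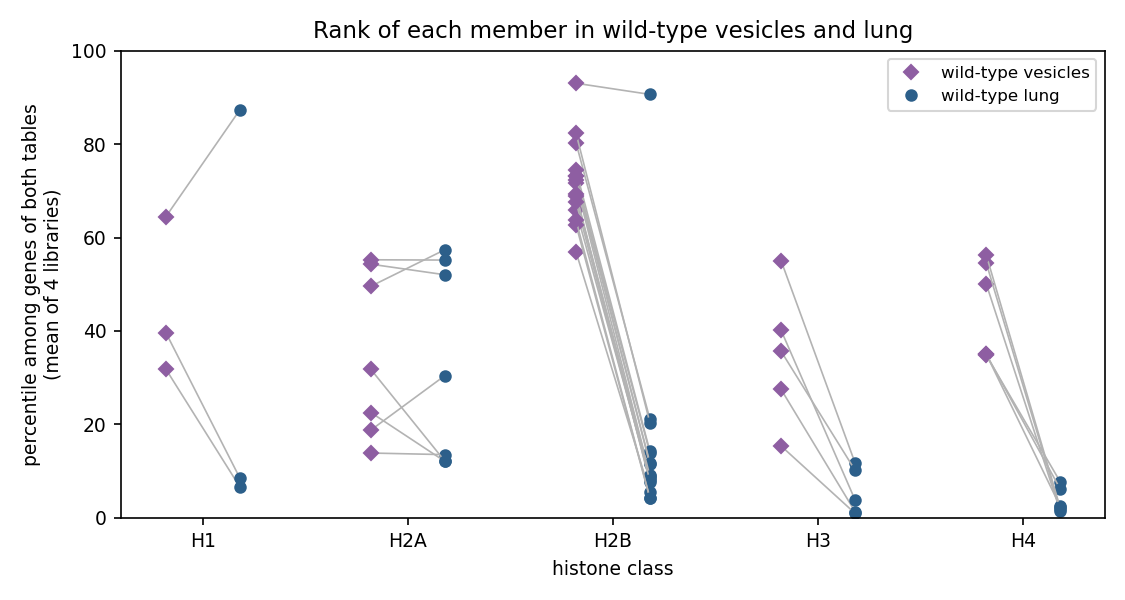
Mean percentile of each member among the 8096 genes of both tables in wild-type vesicles (purple diamonds) and wild-type lung (blue points), joined by lines, by class. H2B genes stand at a median of 71.7 in vesicles and 9.18 in lung, with Hist1h2bc high in both, while H2A genes show no common direction.

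The 15 H2B genes listed in vesicles shared sequence that the 3 others did not. Each of the 15 had 50-base windows in common with 14 other members, a median of 59.2% of its windows and 11.9% at the least. Hist2h2bb, Hist2h2be and Hist3h2ba, which were not listed, shared no window with any member. Over all classes the 36 listed members all shared windows, and 7 of the 32 not listed shared none. Hist2h2be was not low in lung, at 2.02 and 2.48 RPKM in the mutant-labelled lungs, against 2.60, 2.42, 2.39 and 2.42 RPKM in wild-type lungs, above the median of the 15 listed H2B genes (2.07 RPKM in wild-type lungs). The part of reads that match several copies in the H2B levels was not tested.

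Gene ends in the annotation differed as well. In GENCODE M1 on mm9, 20 of the 61 members with a hairpin ended more than 100 bases past it, 26 ended within 100 bases after it, and 15 ended before it was complete. Wild-type lung levels had a median of 1.52 RPKM in the first set, 1.15 RPKM in the second and 2.02 RPKM in the third. The 2 highest members were in the first set: Hist1h2bc, whose second exon carries the gene end to 7826 bases past the hairpin with the intron included, and Hist1h1c, which ends 839 bases past it. The first set also held Hist1h1t at 0.0391 RPKM, so a long annotated end did not go with a high level throughout. Some members overlap another gene: Hist2h2aa2 overlaps Hist2h3c1 on the same strand, Hist3h2a overlaps Trim17 on the same strand, and Hist1h2bm overlaps Hist1h2aj on the other strand. Reads in the first 2 overlaps cannot be assigned by strand, and those in the third only with a strand setting, which is not given.

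**Figure D5:**
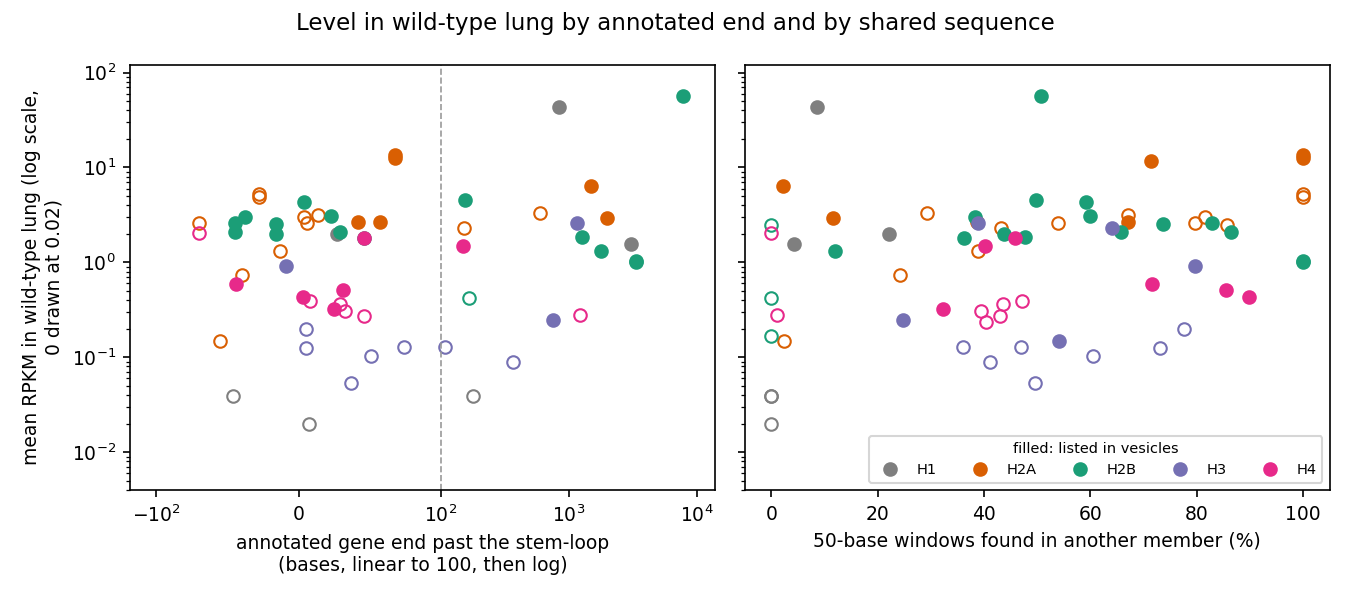
Mean RPKM in wild-type lung (log axis, 0 drawn at 0.02) against the distance from the hairpin to the annotated gene end (left, in bases) and against the percentage of 50-base windows shared with another member (right), coloured by class, with filled points for members listed in vesicles. Hist1h2bc (56.2 RPKM) and Hist1h1c (43.7 RPKM) stand above all others, and the H2B members without shared windows are open points.

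Histones encoded outside the clusters, most of which are made throughout the cell cycle from poly(A)-tailed transcripts, did not follow H2B in vesicles as one group. H3f3a, which encodes the replacement histone H3.3, stood at 30.6 and 33.9 RPKM in mutant-labelled vesicles against 49.7, 53.9, 53.8 and 39.9 RPKM in wild-type vesicles (log2 difference -0.59, SE 0.56, limma adjusted p = 0.669). The linker histone gene H1f0 stood at 1.25 and 20.9 RPKM in mutant-labelled vesicles against 13.2, 10.7, 8.12 and 9.87 RPKM in wild-type vesicles, low in mutant-labelled library 1 and highest in library 2. The variant gene H2afx had 14.0 and 12.2 RPKM in the mutant-labelled lungs, against 11.3, 11.1, 11.1 and 9.86 RPKM in wild-type lungs (0.25, SE 0.083, limma adjusted p = 0.994). Of the 11 such genes, 9 of 11 tested lay above 0 in lung, against 55.7% of all genes, and 4 of 9 in vesicles, against 46%. In either, 0 passed.

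Genes that make, carry or process histones were read as lists. Over all genes tested, the log2 difference lay above 0 in 46% in vesicles and 55.7% in lung. Of 20 histone chaperone genes, 16 were tested in vesicles, 4 lay above 0 and 0 passed. Nap1l1, a chaperone of H2A and H2B, stood at 153 and 636 RPKM in mutant-labelled vesicles against 593, 587, 937 and 807 RPKM in wild-type vesicles (log2 difference -1.20, SE 0.54, limma adjusted p = 0.485), and only mutant-labelled library 1 lay below the wild-type range. Of 21 genes of histone mRNA transcription and processing, 8 of 16 tested lay above 0 in vesicles and 13 of 20 in lung, with 0 called. Of 35 genes of DNA replication and cell division, 9 of 20 tested lay above 0 in vesicles and 25 of 29 in lung (median 0.07), with 0 called. The mitotic kinase gene Cdk1 had 1.12 and 1.09 RPKM in the mutant-labelled lungs, against 0.781, 0.747, 0.724 and 0.811 RPKM in wild-type lungs (0.25, SE 0.072, limma adjusted p = 0.994).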

How the data were processed

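The authors deposited 2 tables, 1 for each source, with 6 library columns each. The headers name no unit. The deposited values were read as RPKM because, times exon length, they step by a fixed amount within a column. Reads were aligned with TopHat2 to mm9 and counted with HTSeq, per the submitters' processing notes. Not given in the sources used here are versions, strand setting, annotation and the treatment of multiply matching reads. From the steps, depth was estimated, and reads were recovered for 67 members (24 at the annotated length, the rest at a length from 150 to 30000 bases chosen to give whole numbers within 0.06), so they are approximate.

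Each table was fitted by limma-trend (version 3.58.1 of limma, R 4.3.3) on log2(RPKM + 1), two-sided, for genes at 1 RPKM or more in 2 or more libraries, with Benjamini-Hochberg adjustment over all genes tested and a threshold of 0.05. On this scale the change of a low gene is understated. The steps were tested on simulated data. Class sums, percentiles and sequence features got no test. Hairpins were searched in mm9 within 100 bases after the stop codon, and 55 members were placed by gene identifier and 13 by symbol. The names Hist2h2aa1 and Hist2h2aa2 follow the files' identifiers. All members may be named. Values in every library are given for members with the highest means of a class and those at an unadjusted p under 0.05, and up to 3 genes of smallest p from each other list, with further genes named after their values were seen. The members and lists were chosen with earlier results of these data known. Alternatives were other pseudocounts, filters and scalings, array weights, a replicate block, each library left out, and, added later, a Y-linked covariate. No library pair of a group held identical values. Replicate numbers did not pair the libraries: deviations of same-numbered libraries correlated at -0.48 and 0.05 in lung and at -0.05 and -0.12 in vesicles.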

Additional observations from a re-analysis of the deposited data

Results flagged for a closer look

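In 15 of 114 sets of 4 wild-type values, 1 library lay far from the other 3 by Dixon's criterion for 4 samples. For normally distributed values chance flags about 1 in 20 sets. Values that rest on few reads move in steps, so that rate does not hold for them. Copies that share reads are not independent, so the number of such sets is a description. In wild-type lungs, lung 3 was high for Hist1h2ai (4.43 RPKM, others 2.81 to 3.04), Hist1h2an (3.01, others 2.22 to 2.32) and Hist2h2ab (1.41, others 0.420 to 0.580), all of H2A. Lung 1 was high for Hist2h2be (2.60 RPKM, others 2.39 to 2.42) and low for Hist1h2ae (1.78, others 2.43 to 2.53) and Hist1h3b (0.0756, others 0.108 to 0.113). The flag of Hist1h3b rests on 2 reads in lung 1 against 3 reads in each other wild-type lung. Lung 4 was low for Hist1h2bg (3.22 RPKM, others 4.77 to 5.06).

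In wild-type vesicles, library 4 was high for Hist1h2be (22.7 RPKM, others 3.62 to 6.27) and Hist1h2br (19.5, others 6.67 to 7.66), although its H2B sum was like the others. Library 2 was high for the H4 genes Hist1h4n (25.9 RPKM, others 3.88 to 4.73) and Hist1h4m (12.8, others 4.15 to 5.55). Library 3 was high for Hist1h4h (12.1 RPKM, others 0.472 to 1.36), Hist2h3c1 (25.3, others 2.64 to 6.26) and Hist3h2a (2.33, others 0.0999 to 0.431). Library 1 was high for Hist2h3b (20.6 RPKM, others 0.488 to 2.27).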

How the results depend on the processing

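No member was called in lung under any alternative run, and in vesicles 0 were called except without mutant-labelled library 2, where 8 were (0 to 8 over single libraries left out, smallest adjusted p 0.00534 by limma). The lung median of -0.01 was 0.060 at a filter of 5 RPKM, 0.057 with Y-linked reads as a covariate and -0.05 to 0.03 without single libraries. The vesicle median of -1.12 was -2.11 at a pseudocount of 0.1, -1.56 at a filter of 5 RPKM, -1.42 with the Y-linked covariate, and -2.29 to -0.20 without single libraries. With the replicate number as a block the medians were -0.11 in lung and -1.35 in vesicles and 0 members were called in both, although the numbers did not pair the libraries. Log2 ratios of class sums without single libraries ranged from 0.025 to 0.19 for H2A in lung, and in vesicles from -5.52 to -1.93 for H1, -4.49 to 0.81 for H2A, -5.00 to -0.0037 for H2B, -1.60 to 0.78 for H3 and -0.72 to 0.69 for H4. Median-of-ratios scaling gave -1.10 for H2B in vesicles, beside -0.96. The difference of Hist1h2bc was 0.041 with the Y-linked covariate in lung, beside -0.17, and in vesicles from -4.50 without mutant-labelled library 2 to 0.043 without mutant-labelled library 1, beside -2.23. The cause was not tested in any of these. In vesicles, 1 read per kilobase was worth 0.573 and 0.596 RPKM in mutant-labelled libraries and 0.185 to 0.238 RPKM in wild-type libraries, so values of single copies rest on few reads there.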
